A study of Mus musculus with 10 samples.

Results

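The genes described here make the enzymes and the carrier of the urea cycle, together with glutamine synthetase and liver glutaminase: Nags, Cps1, Otc, Slc25a15, Ass1, Asl, Arg1, Glul and Gls2. They were chosen by name, and a gene was read from a transcript cluster of the array that the platform annotation gives exactly 1 gene symbol, taking the cluster with the highest mean over the 10 arrays where there was more than 1. Of the 9 genes listed, 8 were measured among 22180 genes in all, and Gls2 was not analysed here because the annotation table used lists no cluster under that symbol. Levels were compared between mouse embryonic stem cells (mESC, n = 4), cells differentiated from such stem cells and labelled hepatocyte like (ES_HLC, n = 3), and hepatocytes of adult liver (Ad_Hep, n = 3). All 10 samples have 1 strain in common: it is labelled C.FVB-Tg(CAG-luc, GFP) with the suffix L2G85Chco/FathJ and carries transgenes for luciferase and a green fluorescent protein behind the broadly active CAG promoter, in every group alike. All 10 also carry a passage label of under 20, the adult hepatocytes included, and no age, sex or differentiation protocol is given in the labels. The titles call the replicates biological, but nothing says that they came from separate cultures or animals, so a p-value speaks only of the scatter among the samples at hand.

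Ammonia released from amino acids is toxic, and the liver disposes of it along 2 routes. Hepatocytes near the portal vein run the urea cycle, which starts in the mitochondrion, passes ornithine and citrulline across the inner membrane and finishes in the cytosol with the release of urea by arginase. Hepatocytes next to the central vein carry glutamine synthetase, which binds the ammonia that escaped the cycle into glutamine, while liver glutaminase in portal hepatocytes sets ammonia free again for the cycle.

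In adult hepatocytes 7 of the 8 measured genes were far above embryonic stem cells, by log2 differences of 2.85 (Asl) or more, and 0 were lower. Hepatocyte-like cells did not show this pattern: against stem cells only Glul rose, Slc25a15 fell, and 6 genes were not called either way. Against adult hepatocytes the same 7 genes were lower in hepatocyte-like cells, and Ass1 was called in none of the 3 comparisons. A call needed both a log2 difference of 1 or more in size and an adjusted p below 0.05 in limma fitted over all genes. Of all 22180 genes, 26.6% were called between adult hepatocytes and stem cells, 11.0% higher and 15.6% lower in adult hepatocytes. Between hepatocyte-like and stem cells 16.0% were called, 8.61% higher and 7.35% lower in hepatocyte-like cells. Between hepatocyte-like cells and adult hepatocytes 23.0% were called, 13.9% higher and 9.12% lower in hepatocyte-like cells. The comparisons share arrays, each cell kind serving in 2 of them, so the counts do not support each other.

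The DNA just before the start of these genes is shown as background, and its part in their levels was not tested. RefSeq promoter windows (GRCm38.p6) were at hand for 5 members, of which Otc, Nags, Slc25a15 and Glul rose in adult hepatocytes. Ass1 was not called, and whether its probes read the liver transcript was not tested. The sequence before the start of Otc is cut to 175 bases because each line below ends at the last base before the gene's outermost annotated start. All run 5′ to 3′ on the strand of the gene. Capitals mark matches to a GC box (GGGCGG) or a CCAAT box on either strand.
Otc, chrX:10252055-10252229, plus strand: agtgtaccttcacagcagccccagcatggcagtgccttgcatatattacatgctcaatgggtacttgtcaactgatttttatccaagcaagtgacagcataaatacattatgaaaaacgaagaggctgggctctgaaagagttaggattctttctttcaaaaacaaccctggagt
Nags, chr11:102145263-102145512, plus strand: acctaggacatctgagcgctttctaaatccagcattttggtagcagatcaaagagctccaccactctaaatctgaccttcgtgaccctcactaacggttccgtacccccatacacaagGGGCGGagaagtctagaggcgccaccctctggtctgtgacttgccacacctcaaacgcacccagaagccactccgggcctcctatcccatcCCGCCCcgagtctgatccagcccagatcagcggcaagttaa
Slc25a15, chr8:22398622-22398871, minus strand: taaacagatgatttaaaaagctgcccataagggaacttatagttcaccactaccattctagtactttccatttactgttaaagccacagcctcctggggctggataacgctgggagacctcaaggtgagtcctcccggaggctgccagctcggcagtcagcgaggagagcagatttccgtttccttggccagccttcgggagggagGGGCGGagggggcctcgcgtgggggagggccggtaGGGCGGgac
Ass1, chr2:31470020-31470269, plus strand: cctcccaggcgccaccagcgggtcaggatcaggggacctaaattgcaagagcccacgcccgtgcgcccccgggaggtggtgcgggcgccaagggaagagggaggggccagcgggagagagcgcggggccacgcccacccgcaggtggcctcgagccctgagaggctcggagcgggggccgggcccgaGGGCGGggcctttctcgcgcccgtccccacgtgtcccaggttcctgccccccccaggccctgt
Glul, chr1:153899679-153899928, plus strand: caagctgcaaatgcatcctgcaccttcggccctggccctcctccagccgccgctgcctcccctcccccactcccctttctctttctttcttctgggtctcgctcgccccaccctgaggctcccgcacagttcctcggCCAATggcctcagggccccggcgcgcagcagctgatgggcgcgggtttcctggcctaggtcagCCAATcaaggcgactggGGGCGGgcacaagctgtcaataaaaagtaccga

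The Otc window had the lowest share of G and C among the 5, 43.6% over its 250 bases with 1 CpG, and the Ass1 window the highest, 75.6% with 23 CpG. The windows of Nags, Slc25a15 and Glul lay between them at 55.6%, 57.6% and 64.8%, and the median over the 32851 windows of the table was 52.4%. Besides the GC box and the CCAAT box (CCAAT), the 250 bases were searched on both strands for an HNF4-type direct repeat (CAAAGTCCA), a C/EBP motif (TTGCNNAA), a CRE (TGACGTCA) and a TATA box (TATAAA). The GC box stood in the windows of Nags, Slc25a15, Ass1 and Glul and in 32.7% of all windows, and the CCAAT box in that of Glul, at 2 places, and in 33.8% of all windows. None of the 6 motifs had a match in the Otc window, and the other 4 had none in any of the 5 (they occur in 0.384%, 9.56%, 1.55% and 12.4% of all windows). These are matches of letters in a short window and say nothing of binding.

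Some facts of the whole series bear on the values below. Adult hepatocytes carried all 9 hepatocyte markers above stem cells, but also all 6 macrophage markers and 5 of 6 endothelial markers (the exception was Pecam1, which fell). Hepatocyte-like cells had 3 of 9 hepatocyte markers higher than stem cells (Ttr, Apoa1 and Apob), all 4 measured fetal liver markers, 4 of 6 stellate cell and fibroblast markers, 3 of 4 bile duct markers (Krt19, Krt7 and Sox9), 2 of 6 endothelial markers (Kdr and Cdh5), 1 of 6 macrophage markers (Csf1r) and 1 of 6 kidney tubule markers (Cubn). In the same cells 5 of 6 embryonic stem cell markers were lower, and so were Pecam1 and the intestine marker Cdx1. The other 6 hepatocyte markers were not called against stem cells, and all 9 were lower than in adult hepatocytes, so most mature markers do not bear out the label of hepatocyte like. Hepatocyte-like replicate 3 stood apart, with albumin (Alb) at 10.80 against 4.85 and 5.14 in replicates 1 and 2. The same array was higher in the hepatocyte markers Apob (9.45 against 7.39 and 6.65) and Hpd (6.17 against 5.19 and 5.61). It also read higher in the stem cell markers Nanog (7.12 against 5.08 and 5.09) and Tdgf1 (6.50 against 3.90 and 3.83), and lower in the fetal liver marker Afp (6.69 against 9.13 and 9.30), the collagen Col1a1 (9.80 against 12.80 and 11.92) and the bile duct marker Sox9 (6.59 against 9.21 and 8.75). Other markers of the hepatocyte, stem cell, fetal liver and bile duct lists went the other way against the mean of replicates 1 and 2. The hepatocyte markers Ttr (-0.97), Apoa1 (-0.66), Cyp3a11 (-0.50) and Serpina1a (-0.49) and the stem cell marker Esrrb (-0.50) were lower. The fetal liver marker Igf2 (0.71) and the bile duct markers Krt7 (0.55) and Epcam (0.31) were higher. The stem cell arrays fell into pairs, replicates 1 with 3 and 2 with 4: their deviations from the group mean correlated at 0.25 and 0.26 over genes within these pairs and at -0.58 to -0.70 between them. In bulk samples, fewer cells of a type and less RNA per cell cannot be told apart. With cyclic loess scaling the calls between adult hepatocytes and stem cells split into 2901 higher and 2673 lower in place of 2443 and 3450, and those between hepatocyte-like cells and adult hepatocytes into 2411 and 2360 in place of 3083 and 2023. The array gives no detection call here, so the levels of 1105 olfactory receptor genes, which these cells are not known to use, served as a floor. Their 95th percentile lay between 4.85 and 5.22 on the 10 arrays.

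**Figure D1:**
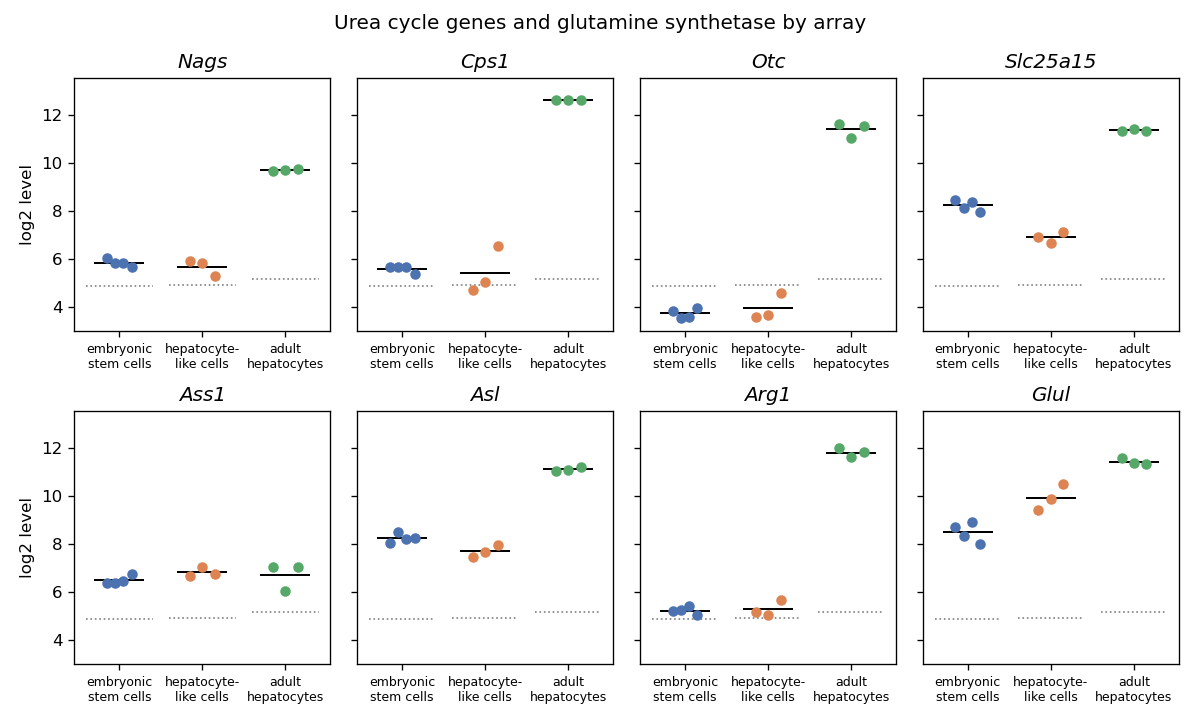
The log2 level of each gene is plotted for every array by cell kind, with the group mean as a black line and the 95th percentile of olfactory receptor genes as a dotted line. The adult points lie above those of both other kinds for every gene but Ass1, and Otc lies under the dotted line in stem cells and hepatocyte-like cells.

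Nags and Cps1 open the cycle. Nags makes N-acetylglutamate, the obligatory activator of carbamoyl phosphate synthetase (chromosome 11, positions 102145513 to 102149528). It read 9.67, 9.69 and 9.72 on the adult hepatocyte arrays, 5.91, 5.85 and 5.28 in hepatocyte-like cells and 6.03, 5.85, 5.84 and 5.69 in stem cells. The adult arrays lay within 0.1 of each other and far above the rest, while the ranges of the other groups overlapped. The rise in adult hepatocytes over stem cells was 3.84 ± 0.17 (SE; limma, adjusted p = 1.50e-09), or 14.3-fold (95% interval 11 to 18.6). Hepatocyte-like cells differed from stem cells by -0.18 ± 0.17 (adjusted p = 0.539, 95% interval -0.56 to 0.20) and were lower than adult hepatocytes by -4.02 ± 0.19 (adjusted p = 2.24e-09). A dimmer cluster of Nags gave the same picture at a smaller scale, with 2.23 ± 0.19 between adult hepatocytes and stem cells (adjusted p = 6.47e-07).

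Cps1, carbamoyl phosphate synthetase, joins ammonia and bicarbonate in the mitochondrial matrix and is also active in the small intestine. On chromosome 1 (67122426 to 67231267), it read 12.62, 12.61 and 12.61 in adult hepatocytes, 4.70, 5.06 and 6.56 in hepatocyte-like cells and 5.69, 5.68, 5.66 and 5.37 in stem cells. Adult hepatocytes were higher than stem cells by 7.01 ± 0.33 (limma, adjusted p = 2.38e-09), which placed Cps1 at rank 93 of 22180 genes by the size of the rise. In hepatocyte-like cells the mean differed from stem cells by -0.16 ± 0.33 (adjusted p = 0.801, 95% interval -0.89 to 0.57), but the 3 arrays did not move together: replicates 1 and 2 lay below all 4 stem cell arrays and replicate 3 above all of them. Replicates 1 and 2 were under the olfactory floors of their arrays (4.96 and 5.22). Without replicate 3 the difference was -0.72 (adjusted p = 0.00794), below the size needed for a call and resting on those 2 readings. Between hepatocyte-like cells and adult hepatocytes the fitted difference was -7.17 ± 0.36 (adjusted p = 4.47e-09). Only 1 of 3 hepatocyte-like arrays was above the floor in Cps1, and the 4 stem cell arrays were above but near it, so folds against both kinds are uncertain. Of 6 intestine markers, Fabp2 rose in adult hepatocytes over stem cells and Cdx1 fell.

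Otc and Slc25a15 form and exchange citrulline at the mitochondrion. Otc, ornithine transcarbamylase, lies on the X chromosome (10252230 to 10321024) and read 11.60, 11.03 and 11.52 in adult hepatocytes. It read 3.61, 3.67 and 4.61 in hepatocyte-like cells and 3.87, 3.55, 3.61 and 3.98 in stem cells. Stem cells and hepatocyte-like cells overlapped and were both below the olfactory floor on every array, although replicate 3 was above all stem cell arrays. The fitted rise in adult hepatocytes over stem cells was 7.63 ± 0.25 (limma, adjusted p = 6.24e-11), but with stem cells under the floor it has only a lower bound: Otc was at least 86.6-fold higher (log2 6.44) when each stem cell array was raised to its own floor. Whether Otc or Cps1 rose more is therefore not known. The difference between hepatocyte-like and stem cells was 0.21 ± 0.25 (adjusted p = 0.612, 95% interval -0.33 to 0.75), and that between hepatocyte-like cells and adult hepatocytes -7.42 ± 0.26 (adjusted p = 2.04e-10), which by the same bound is at least 83-fold lower. All readings of Otc in the cultured kinds are under the floor and show no order.

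Slc25a15, the carrier that exchanges ornithine for citrulline across the inner membrane, lies on chromosome 8 (22375550 to 22398621). It was clearly measured in all 3 kinds: 11.33, 11.40 and 11.30 in adult hepatocytes, 6.91, 6.67 and 7.12 in hepatocyte-like cells, and 8.45, 8.14, 8.38 and 7.95 in stem cells. No groups overlapped, and hepatocyte-like cells were lowest. Slc25a15 fell by 1.33 ± 0.17 from stem cells to hepatocyte-like cells (limma, adjusted p = 7.39e-05), a 2.51-fold difference (95% interval 1.94 to 3.24), so it moved away from the adult level. It was the only measured member called lower there, against 7.35% of all genes. In adult hepatocytes it was higher than in stem cells by 3.11 ± 0.17 (adjusted p = 8.93e-09) and than in hepatocyte-like cells by 21.7-fold (95% interval 16.5 to 28.5, adjusted p = 6.42e-10). Slc25a2, a second ornithine carrier, had group means of 4.23 in adult hepatocytes, 4.85 in hepatocyte-like cells and 3.99 in stem cells, all below the floor, and was not called in any comparison with all arrays. Without hepatocyte-like replicate 1 it passed the rule against stem cells (1.11, adjusted p = 6.99e-04), on levels of which 1 array is above the floor.

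The cytosolic steps are those of Ass1, Asl and Arg1. Ass1, argininosuccinate synthetase (chromosome 2, 31470270 to 31520670), joins citrulline and aspartate and is known as an abundant portal hepatocyte enzyme, yet its cluster was not high in the adult samples. It read 7.04, 6.06 and 7.04 in adult hepatocytes, 6.68, 7.02 and 6.74 in hepatocyte-like cells, and 6.39, 6.38, 6.48 and 6.76 in stem cells. All groups overlapped. The differences were 0.21 ± 0.23 for adult hepatocytes against stem cells (limma, adjusted p = 0.52, 95% interval -0.29 to 0.72), 0.31 ± 0.23 for hepatocyte-like against stem cells (adjusted p = 0.387, 95% interval -0.19 to 0.82) and 0.10 ± 0.25 when hepatocyte-like cells were set against the adult ones (adjusted p = 0.793, 95% interval -0.44 to 0.64). Adult replicate 2 was the low one, and without it adult hepatocytes differed from stem cells by 0.54 (adjusted p = 0.0362), still under the size for a call. Only 1 cluster carries this symbol, and whether its probes read the liver transcript was not tested.

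Asl, argininosuccinate lyase, splits argininosuccinate into arginine and fumarate and is used for arginine synthesis well beyond the liver. On chromosome 5 (130011258 to 130024381), it read 11.03, 11.08 and 11.19 in adult hepatocytes, 7.48, 7.65 and 7.95 in hepatocyte-like cells, and 8.06, 8.48, 8.20 and 8.27 in stem cells. Adult hepatocytes were higher than stem cells by 2.85 ± 0.16 (limma, adjusted p = 1.49e-08). All 3 hepatocyte-like arrays were below all 4 stem cell arrays, by -0.56 ± 0.16 (adjusted p = 0.0209, 95% interval -0.91 to -0.20), which is under the size set for a call. The difference to adult hepatocytes was -3.41 ± 0.17 (adjusted p = 6.01e-09).

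Arg1, liver arginase, releases urea and returns ornithine to the cycle, and it is also found in some activated macrophages. On chromosome 10 (24915207 to 24927470), it read 11.98, 11.59 and 11.81 in adult hepatocytes, 5.18, 5.04 and 5.65 in hepatocyte-like cells, and 5.20, 5.27, 5.41 and 5.05 in stem cells. The adult rise over stem cells was 6.56 ± 0.18 (limma, adjusted p = 1.74e-11), and hepatocyte-like cells overlapped stem cells at a difference of 0.06 ± 0.18 (adjusted p = 0.867, 95% interval -0.33 to 0.45). The stem cell arrays were above but near the olfactory floor, and hepatocyte-like replicate 2 was under that of its array (5.22). The size of the adult rise, and whether the other 2 kinds differ, are therefore uncertain. Macrophage markers were also higher in the adult samples: their mean log2 level was 6.24 to 6.44 there against 4.04 to 4.18 in hepatocyte-like and 3.84 to 4.09 in stem cells, with 5 of 6 above the floor, and their part in the Arg1 level was not tested. Arg2, the mitochondrial arginase of other tissues, went the other way, from 5.95 ± 0.25 (SD, n = 4) in stem cells to 4.92 ± 0.33 (n = 3) in adult hepatocytes, where 1 of 3 arrays was above the floor. The fitted fall was 1.03 ± 0.25 (SE, limma, adjusted p = 0.00466), and 0.75 with the adult arrays raised to the floor, which is under the size for a call. It was also no call with the replicate block (-0.98), without adult replicate 1 (-0.92) or 3 (-0.96), or without stem cell replicate 2 (-0.95) or 4 (-0.98).

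**Figure D2:**
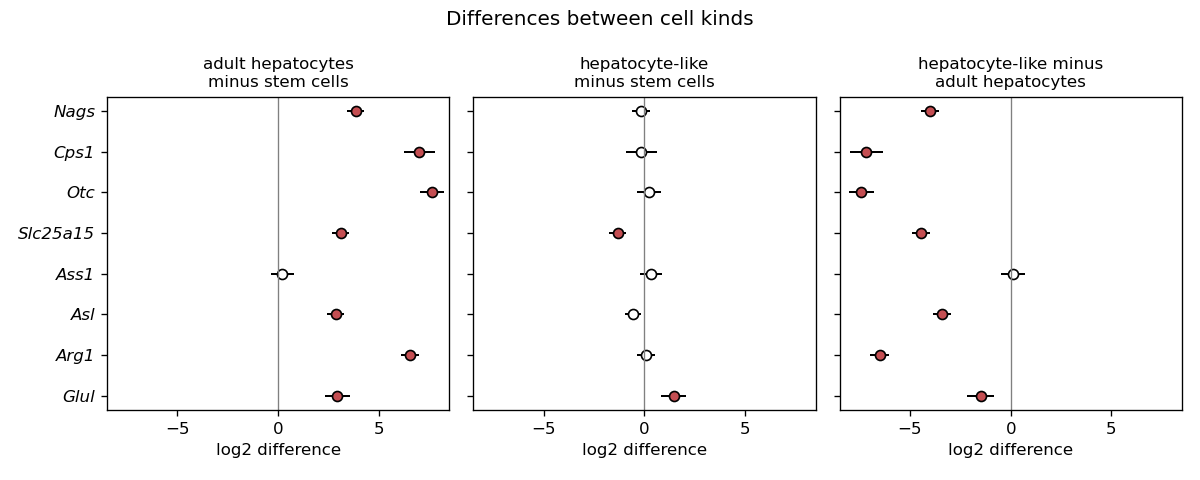
Log2 differences between cell kinds are plotted for each gene with 95% intervals from limma, and filled points mark called differences; for Otc, under the floor in both cultured kinds, the large differences are fitted values and not bounds. The left panel has 7 filled points above 2.8, the middle panel has only Slc25a15 on the negative and Glul on the positive side, and in the right panel Ass1 alone is open.

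Glul, glutamine synthetase, was the single member that rose on differentiation. On chromosome 1 (153899929 to 153909723), it read 9.40, 9.87 and 10.51 in hepatocyte-like cells, 8.69, 8.32, 8.91 and 8.01 in stem cells, and 11.55, 11.38 and 11.33 in adult hepatocytes. The 3 kinds did not overlap, with hepatocyte-like cells in the middle. The rise over stem cells was 1.44 ± 0.26 (limma, adjusted p = 0.00106), 2.72-fold (95% interval 1.83 to 4.04), against 8.61% of all genes called higher. Hepatocyte-like cells remained 2.82-fold below adult hepatocytes (95% interval 1.85 to 4.30, adjusted p = 9.37e-04), and adult hepatocytes exceeded stem cells by 2.94 ± 0.26 (adjusted p = 1.09e-06). The highest hepatocyte-like array was again replicate 3, but without it the rise was 1.15 (adjusted p = 0.00418). Stem cell replicates 1 and 3 read higher than 2 and 4.

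The rise of Glul in hepatocyte-like cells was read from the brighter of its 2 clusters. The dimmer cluster read 3.88, 4.26 and 5.28 in hepatocyte-like cells and 5.17, 4.19, 5.18 and 4.18 in stem cells, with group means under the olfactory floor in both kinds (1 of 3 and 2 of 4 arrays above it), so it cannot show whether Glul changed there. Its difference was -0.21 ± 0.37 (limma over all clusters, adjusted p = 0.761). With both clusters averaged, the dim one included, the difference was 0.62 (adjusted p = 0.16). Adult hepatocytes were higher than stem cells in the dimmer cluster too, by 2.07 ± 0.37 (adjusted p = 4.83e-04).

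Hepatocyte-like replicate 3 was compared with replicates 1 and 2 over the members, since it stood apart in the markers above. It was the highest of the 3 arrays in 6 of 8 members, where 35.4% of all genes were highest in that array. Against stem cells it lay above all 4 arrays in Cps1, Arg1, Glul and Otc, the last with all readings under the floor. Replicate 1 did so in Glul, and replicate 2 in Glul and Ass1. No share over all genes stands beside this, so it is not read as a trait of the members. Its excess over the mean of replicates 1 and 2 was 1.68 for Cps1 (both of those under the floor), 0.87 for Glul and 0.54 for Arg1, but Nags was lower there, at -0.60. Albumin, Apob, Hpd, Nanog and Tdgf1 were higher and Afp, the fibroblast markers (mean log2 level 7.73 against 9.72 and 8.79) and Sox9 lower in the same array. Other hepatocyte, stem cell, fetal liver and bile duct markers went the other way, as given above. The part of any of these in the member values was not tested. The calls of the members in all 3 comparisons were the same without this array.

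**Figure D3:**
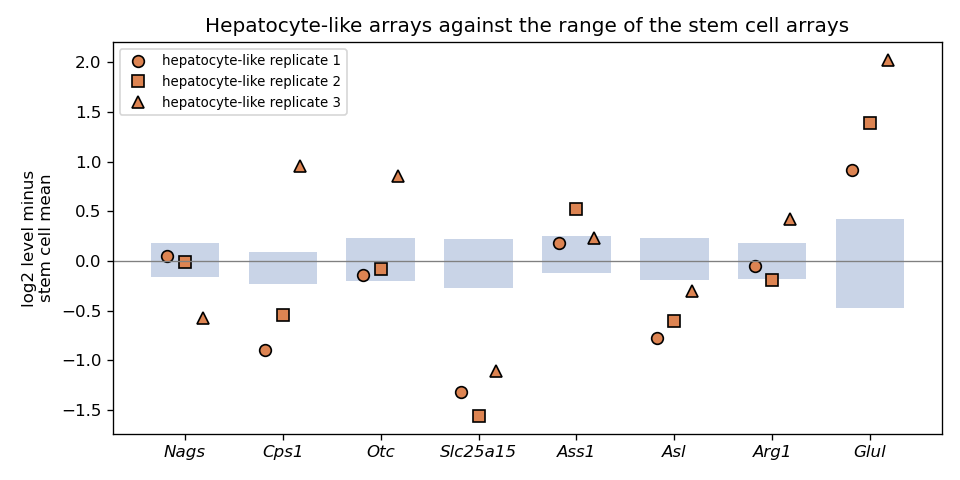
Each hepatocyte-like array is plotted as its log2 level minus the stem cell mean, with the range of the 4 stem cell arrays as a blue band. Slc25a15 and Asl lie below the band on all 3 arrays, and Glul lies above it on all 3. For Cps1 replicate 3 is above while replicates 1 and 2, both under the olfactory floor, are below.

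The likeness of other genes to the members was taken as the root mean square difference of log2 values over the 10 arrays after each gene's mean was removed, and the 2 nearest genes are named. Nearest to Cps1 were the clotting factor F9 (0.26) and haptoglobin Hp (0.27), and nearest to Otc were the tyrosine catabolic enzyme Hgd (0.17) and urate oxidase Uox (0.20). Arg1 was most like the bile acid reductase Akr1d1 (0.09) and the esterase Aadac (0.16). Nags was most like Sec16b (0.12) and the carboxylesterase Ces1b (0.14). Asl, which dips in hepatocyte-like cells, was nearest to the ketone body enzyme Bdh1 (0.12) and Dcaf11 (0.19). Slc25a15 was nearest to the peroxisomal reductase Pecr (0.15) and the lysine catabolic enzyme Gcdh (0.21), which had the same order of group means: hepatocyte-like cells, stem cells, adult hepatocytes. Glul had no gene closer than Sppl2a (0.25) and Gpcpd1 (0.27), whose means also rose from stem cells over hepatocyte-like cells to adult hepatocytes. F9, Hgd, Uox, Akr1d1, Aadac and Sec16b had group means under the olfactory floor in stem cells and hepatocyte-like cells, where their readings show no order. A gene picked for a small difference tends to share the order of group means, so that order is no separate result. Arrays of 1 kind share their level, so the 10 points are not independent.

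Enzymes that bring nitrogen to the cycle, or take glutamate, proline and arginine elsewhere, followed the adult pattern in most cases. Of 19 listed, 16 were measured, and 11 rose and 3 fell in adult hepatocytes against stem cells, beside 11.0% and 15.6% of all genes. The 3 that fell are near their share. The median difference was 2.0 beside 0.05 over all genes. The alanine transaminase Gpt rose by 4.55 ± 0.29 (adjusted p = 3.74e-08), agmatinase Agmat by 4.61 ± 0.17 and the creatine synthesis enzyme Gamt by 4.31 ± 0.21. Aldh18a1, which makes proline and ornithine precursors from glutamate, fell by a fitted 3.74 ± 0.24 (adjusted p = 4.59e-08) to under the floor, at least 11.2-fold, while Prodh, the first enzyme of proline breakdown, rose by 3.36 ± 0.20.

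In hepatocyte-like cells 0 of these 16 enzymes rose over stem cells and 3 fell, beside 8.61% and 7.35% of all genes. Glutamate dehydrogenase Glud1, which sets ammonia free from glutamate, fell by 1.06 ± 0.15 (limma, adjusted p = 1.32e-04). The cytosolic aspartate transaminase Got1 fell by 2.11 ± 0.20 and the alanine transaminase Gpt2 by 2.02 ± 0.22 (adjusted p = 7.31e-06 and 2.17e-05). Glud1 read 9.71, 9.94 and 10.04 in hepatocyte-like cells against 10.84 to 11.06 in stem cells and 12.02 to 12.20 in adult hepatocytes, so that, like Slc25a15, it was lowest in hepatocyte-like cells. Without hepatocyte-like replicate 1 the difference of Glud1 was -0.96, short of a call by size, while Prodh (-1.04) and Aldh18a1 (-1.21) were then called lower. Aldh18a1 was at -0.98 ± 0.24 with all arrays and was also called with arrays centred on their median (-1.06) and without stem cell replicate 1 (-1.07) or 3 (-1.09). Against adult hepatocytes 12 of the 16 were lower in hepatocyte-like cells and Aldh18a1 was higher, beside 9.12% and 13.9% of all genes.

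Transporters went both ways. Among 17 measured, 6 rose and 5 fell in adult hepatocytes against stem cells, beside 11.0% and 15.6% of all genes. Their median difference was 0.25 beside 0.05 over all genes. The glutamine transporter Slc38a3 rose by 7.23 ± 0.22 (limma, adjusted p = 3.74e-11) and the cationic amino acid transporter Slc7a2 by 5.14 ± 0.16. The glutamine transporters Slc1a5 and Slc38a1, prominent in many dividing cells, fell by a fitted 5.12 ± 0.29 and 4.51 ± 0.19, to adult means just under the floor (2 of 3 and 1 of 3 arrays above it). With the adult arrays raised to the floor, stem cells were at least 30.8-fold higher in Slc1a5 and 21-fold in Slc38a1. In hepatocyte-like cells Slc38a3 read 5.59, 5.62 and 6.28 against 12.39 to 12.53 in adult hepatocytes, and was not called against stem cells (0.58 ± 0.22, adjusted p = 0.0672). Slc38a1 was above all stem cell arrays there, at 10.04, 10.22 and 10.66 against 9.49 to 9.78, a difference of 0.66 ± 0.19 (adjusted p = 0.0168) under the size for a call.

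Of the 17 transporters 1 rose from stem cells to hepatocyte-like cells and 4 fell, beside 8.61% and 7.35% of all genes. In so short a list 1 is near its share, so the single rise is not read as a trait of transporters. Slc38a4, an amino acid transporter prominent in liver, rose by 1.68 ± 0.25 (limma, adjusted p = 2.44e-04) to 12.39, 11.35 and 12.31, overlapping the adult range of 12.20 to 12.37, with a difference to adult hepatocytes of -0.28 ± 0.27 (adjusted p = 0.459). The mitochondrial aspartate and glutamate carrier Slc25a13, which supplies aspartate to argininosuccinate synthetase, fell by 2.33 ± 0.28 (adjusted p = 4.77e-05), from 9.84 to 10.21 in stem cells to 7.47, 7.05 and 8.57. The ammonia transporter Rhbg fell by 2.18 ± 0.29 and Slc1a5 fell by 2.81 ± 0.29 (adjusted p = 9.15e-05 and 1.27e-05). In adult hepatocytes Slc25a13 stood at 10.89 to 11.03, a difference of 0.95 ± 0.28 to stem cells (adjusted p = 0.0158) just under the size for a call, which it passed with cyclic loess (1.49) and without stem cell replicate 1 (1.01).

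Enzymes that spend glutamine nitrogen in synthesis mostly went the other way in adult hepatocytes. Of 9 measured amidotransferases 5 fell and 1 rose against stem cells, beside 15.6% and 11.0% of all genes. In so short a list 1 is near its share. Their median difference was -1.84 beside 0.05 over all genes. Asparagine synthetase Asns fell by 5.55 ± 0.20 (limma, adjusted p = 1.30e-10), the hexosamine enzyme Gfpt2 by a fitted 4.85 ± 0.27 to under the floor (at least 18.4-fold), the CTP synthase Ctps by 3.17 ± 0.19 and Cad, whose carbamoyl phosphate goes to pyrimidines, by 2.89 ± 0.24. Nadsyn1, of NAD synthesis, rose by 1.50 ± 0.17. Against adult hepatocytes 5 of 9 were higher in hepatocyte-like cells, beside 13.9% of all genes, including Gfpt2 (at least 14.4-fold) and Asns (3.37 ± 0.21). Nadsyn1 was lower there, beside 9.12% of all genes. From stem cells to hepatocyte-like cells, Asns (-2.18 ± 0.20), Ppat (-1.99 ± 0.23), which opens purine synthesis, and Cad (-1.44 ± 0.24) fell, beside 7.35% of all genes. Gfpt1 rose by 1.31 ± 0.19, beside 8.61% of all genes called higher.

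**Figure D4:**
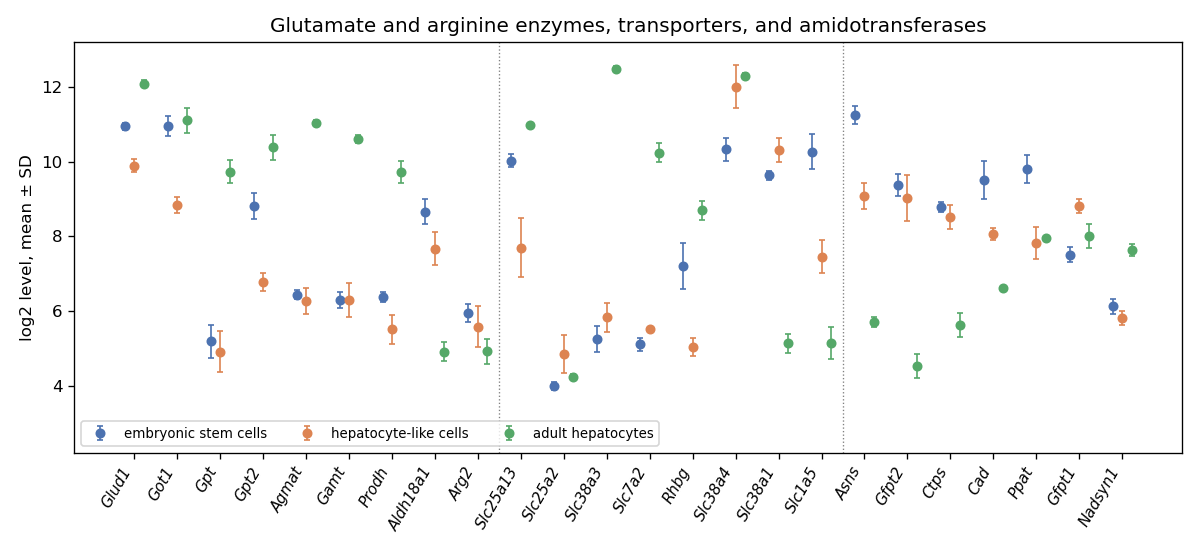
Mean log2 levels with SD bars are plotted for 24 enzymes and transporters of glutamate, arginine and glutamine in the 3 cell kinds, with dotted lines between enzymes, transporters and amidotransferases. Adult hepatocytes are highest in Gpt, Agmat, Gamt, Slc38a3 and Slc7a2 and lowest in Aldh18a1, Slc38a1, Slc1a5, Asns, Gfpt2, Ctps and Cad.

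Since the urea cycle and glutamine synthetase occupy opposite zones of the liver lobule, genes of both zones were set beside them. Of 8 measured periportal genes 7 rose in adult hepatocytes against stem cells, and of 10 pericentral genes 8 rose, beside 11.0% of all genes. Most of those with large rises were under the floor in stem cells and have a lower bound in place of a size or an order: at least 239-fold for Tat (1 of 4 stem cell arrays above the floor), 129-fold for Cyp2f2 and 69.9-fold for G6pc among periportal genes, and at least 118-fold for Cyp2c29, 108-fold for Cyp1a2 and 40.2-fold for Lect2 among pericentral ones. Pck1, with 1 of 4 stem cell arrays above the floor, rose by a fitted 6.78 ± 0.19 and Cyp2e1 by 8.08 ± 0.31. In adult hepatocytes 1 periportal and 2 pericentral genes were lower than in stem cells, beside 15.6% of all genes. The Wnt target Axin2 was among the pericentral ones (-2.72 ± 0.21, limma, adjusted p = 2.28e-07). In hepatocyte-like cells 0 genes of either zone rose over stem cells. The histidine-degrading enzyme Hal fell by a fitted 1.10 ± 0.16 (limma, adjusted p = 2.23e-04), or 0.94 with its hepatocyte-like arrays raised to the floor (1 of 3 was above it). Of the pericentral genes Rhbg fell, as did Axin2 (by 2.07 ± 0.21, limma, adjusted p = 9.36e-06). Axin2 had group means of 8.95 in stem cells, 6.88 in hepatocyte-like cells and 6.23 in adult hepatocytes, so its fall was toward the adult level. Glul was called higher in hepatocyte-like cells, and 0 of the 10 listed pericentral genes were. In so short a list 0 is near the share of 8.61% over all genes, so no contrast with Glul is drawn from it. Cyp2e1 was called without replicate 1 (1.04) and Cyp2c29 without replicate 2 (1.09, with group means under the floor). As in Cps1, replicate 3 was highest in Tat, at 7.22 against 4.40 and 4.36, and in Cyp2e1, at 6.83 against 5.21 and 5.33.

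Of 11 measured regulators known to act on urea cycle transcription or enzyme activity, 10 rose and 0 fell in adult hepatocytes against stem cells. The shares over all genes were 11.0% and 15.6%. The median difference was 2.50 beside 0.05 over all genes. Those that rose included the transcription factors Cebpa (5.05 ± 0.23), Ppara (4.84 ± 0.21) and Hnf4a (4.44 ± 0.22) and the glucagon receptor Gcgr (4.28 ± 0.16). For Ppara 1 of 4 stem cell arrays was above the floor, so the size of its rise is uncertain. In hepatocyte-like cells the glucocorticoid receptor Nr3c1 rose over stem cells by 1.35 ± 0.24 (limma, adjusted p = 9.36e-04) and Cebpb by 1.15 ± 0.27 (adjusted p = 0.00545), the latter not called without hepatocyte-like replicate 3 (0.80). Hnf4a read 6.66, 7.13 and 6.12 there against 5.78 to 6.21 in stem cells and 10.18 to 10.65 in adult hepatocytes, a difference to stem cells of 0.65 ± 0.22 (adjusted p = 0.0457) under the size for a call. Cebpa, at 5.22, 5.39 and 5.27, was within the stem cell range of 4.80 to 5.73.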

How the data were processed

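RNA was isolated with TRIzol, column-cleaned, biotin-labelled and hybridised to Affymetrix arrays, per the labels' protocols. The deposited table holds log2 values of 41345 transcript clusters on 10 arrays, and they were taken without further normalization. The tools named per the submitters' processing notes are Transcriptome Analysis Console, R 3.3.1, RMA and oligo 1.38.0, but what each was used for, and which genome build, is not given in the sources used here. The log2 scale was read from the values (1.27 to 13.58, array medians 4.91 to 5.07). Scanner files were not used here. The platform annotation gave 1 symbol to 23521 clusters, several to 1814 and none to 16010; 1 cluster per symbol left 22180 genes, and the Entrez identifiers of the 8 measured members matched RefSeq (GRCm38.p6).

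limma 3.58.1 (R 4.3.3; lmFit, eBayes, 2-sided) was fitted to the 10 arrays together, each group having its mean and nothing else in the model (7 residual degrees of freedom, prior 5.34), with Benjamini-Hochberg adjustment over all genes; every adjusted p is from this fit unless another is named. The script was tested on simulated data. Precision is limited by how few arrays there are. The members and lists were chosen with earlier results of these data known. Named were all members, up to 4 called genes of each list per comparison by size, Arg2, Glud1, Slc25a13 and Slc25a2 always, markers, and the 2 most similar genes per member. Alternatives were other scalings, filters, cluster rules, variance models, weights, samples, the replicate block and thresholds. Plots were made in matplotlib 3.10.9 under Python 3.11.15. Where a group mean was not above the olfactory floor, each of its arrays was raised to its own floor (or left at its value if higher) and the difference of means was given as a lower bound, a step added after the data were seen.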

Additional observations from a re-analysis of the deposited data

Results flagged for a closer look

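Among 48 genes checked in the 4 stem cell arrays, Cps1 in replicate 4 stood far from the others, at 5.37 against 5.66 to 5.69. Chance sets about 1 in 20 groups apart in this way, and 1 of the 48 genes was.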

How the results depend on the processing

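The members called numbered 7, 2 and 7 (adult hepatocytes against stem cells, hepatocyte-like against stem cells, hepatocyte-like against adult hepatocytes), and over the 10 fits that each left out 1 array they numbered 7 to 7, 2 to 2 and 7 to 7. Between hepatocyte-like and stem cells 1 was called with a gene's clusters averaged, Glul being lost, and 0 at an adjusted p under 0.01 with a log2 difference of at least 2, where by construction Glul and Slc25a15 fall short; against adult hepatocytes that rule called 6, Glul falling short. At an adjusted p under 0.05 alone 3 were called between hepatocyte-like and stem cells (1 higher, 2 lower), Asl being added. Of 480 refitted values of single members over 20 settings, 479 kept their call or lack of a call, and the exception is Glul with averaged clusters. In many of these fits the difference could not change, as when the array left out was of the kind not compared. Only averaging brought in the dimmer clusters of Glul and Nags. The 479 are therefore no measure of how firm the calls are. For other named genes 8 of 2397 lost a call and 15 gained one, and 0 reversed. The replicate block left the counts of members at 7, 2 and 7, with Glul at 1.28 and Slc25a15 at -1.42 between hepatocyte-like and stem cells. Same-numbered arrays of different kinds correlated in their deviations at -0.19 to 0.14, and differently numbered ones at -0.17 to 0.23. These values show no pairing by number, but with so few arrays per kind they cannot exclude one. Without scanner files no signal could be set against its own background, which limits Otc, Cps1 and Arg1 in both cultured kinds.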
